A study of Mus musculus with 6 samples.

Results

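Detoxification and redox enzymes oxidise, reduce or conjugate foreign compounds, steroids, reactive aldehydes, quinones and peroxides. The genes described here are 127 of the 16701 genes of the authors' deposited table, picked by symbol. The rule uses no measured value, though it was set with earlier results of these data known. They are the rows whose symbol begins with the name of a glutathione S-transferase, UDP-glucuronosyltransferase, sulfotransferase, aldehyde dehydrogenase, cytochrome P450, aldo-keto, carbonyl or quinone reductase, thioredoxin, peroxiredoxin, methionine sulfoxide reductase, glutathione peroxidase or superoxide dismutase. Catalase (Cat), glutamate-cysteine ligase (Gclc and Gclm), heme oxygenase (Hmox1 and Hmox2) and cysteine dioxygenase (Cdo1) were included by name, and Aldh1a3 and Cyp51 were left out. GENCODE M21 annotates 297 genes with such symbols, and no listed gene has a mean level below 8.35, so the 127 are those that passed the authors' filter. The UDP-glucuronosyltransferases, with 19 annotated genes, have 0 rows.

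The libraries were made from polyadenylated RNA of luminal epithelial cells of the mouse mammary gland, the cells that line the ducts and make milk. Wild-type control mice gave 3 libraries, and mice with a knockout of Ocln gave another 3. Ocln is the gene of the tight junction protein occludin, and all mice were 7 weeks old. The series is about occludin and FIP5 on endosomes of dividing cells, and this comparison asks which transcripts differ in luminal cells of the knockout. The knockout allele, the strain background, how cells were isolated and whether each library is 1 mouse stay unknown from the labels, so the p-values measure only how far these libraries differ, and some of that may be technical.

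As background, detoxification runs in phases. Cytochromes P450, reductases and dehydrogenases first make a reactive group or remove one, and transferases then attach glutathione, sulfate or glucuronic acid. Peroxides are removed by glutathione peroxidases and peroxiredoxins, which are recharged by glutathione and thioredoxin, while many of these genes are switched on by the transcription factor NRF2 (Nfe2l2) or by the aryl hydrocarbon receptor (Ahr). In the mammary gland, several of these enzymes handle estrogens, retinaldehyde and lipid aldehydes.

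Each gene in the authors' deposited table has a mean level in normalized counts over all 6 libraries, a log2 fold change of knockout over control, its standard error (SE) and a DESeq2 p-value, adjusted over all listed genes. Values per library were not used here, so overlap between libraries of the genotypes cannot be given. In its place, a level per genotype was worked out from the mean level and the fold change of 3 and 3 libraries, and is called the implied level. Ocln itself had 44.9 percent of the control level, with an interval of 35.9 to 56.2 percent, by the authors' deposited table. It fell, but its transcript was still measured in the knockout libraries at an implied 1269 normalized counts, and with the allele unknown this does not show how much occludin was left. The luminal keratin genes Krt8 and Krt18 had mean levels of 61719 and 84084 normalized counts in the authors' deposited table, against 116 for the basal keratin gene Krt5. Of 11 adipocyte markers, 8 were not listed, Adipoq and Plin1 among them.

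By the adjusted p-values of the authors' deposited table, 4 of the 127 genes passed the threshold of 0.05, and all 4 fell in the knockout. They were Msrb3, Cdo1, Aldh1a7 and Akr1c13. This is 3.15 percent of the members, against 1.08 percent of all listed genes called in either direction. Of all listed genes, 0.808 percent were called higher and 0.275 percent lower, and 0 members were called higher. At an unadjusted p under 0.05 there were 13 members lower and 4 higher, or 10.2 and 3.15 percent, against 3.83 and 5.23 percent of all listed genes and 9.07 percent in both directions. Fold changes were below 0 on the log2 scale for 84 members and above it for 43, and their median was -0.16, where all listed genes had 51.2 percent negative and a median of -0.01. These are descriptions of the list and not a test of it. The counts by family and by list further on are to be read beside the shares of all listed genes given here. The authors' own calls in the authors' deposited table, which by the values follow the unadjusted p and a fold limit, mark 5 members as lower (the called genes other than Msrb3, with Akr1c14 and Aldh1a1) and 1 as higher (Cyp4x1). That is 3.94 and 0.787 percent, where 0.988 percent of all listed genes were so marked lower, 1.8 percent higher and 2.79 percent either way.

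**Figure D1:**
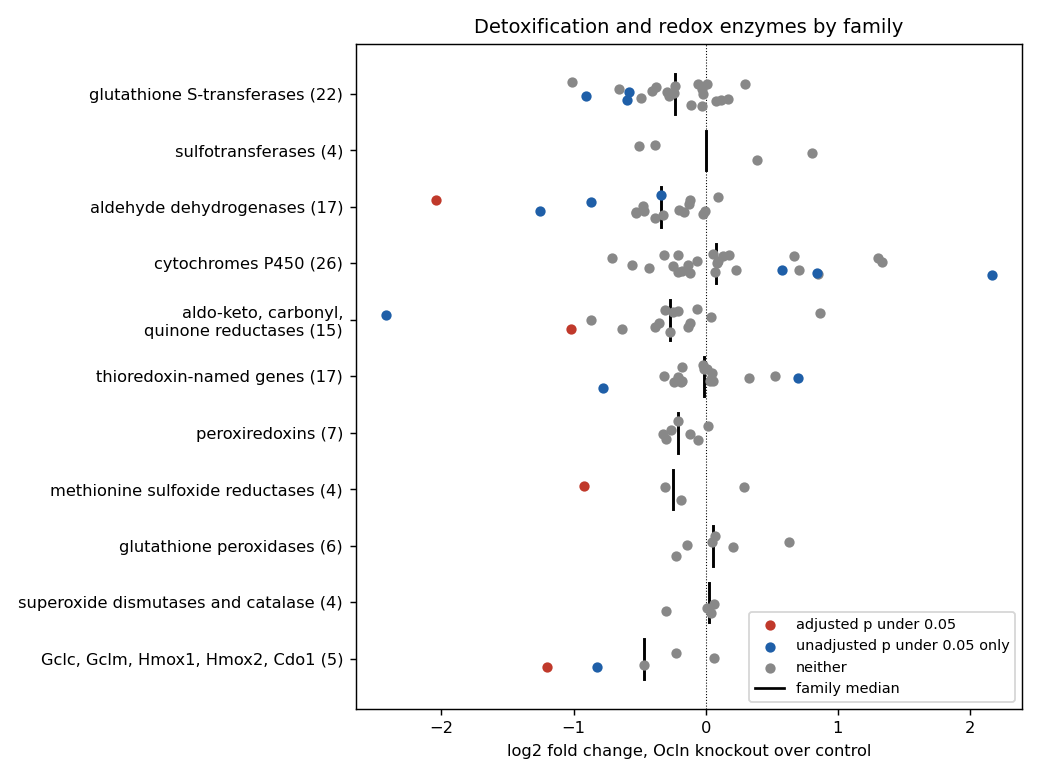
Log2 fold change of knockout over control (horizontal axis) for each of the 127 genes, by family, with the number of genes in parentheses and the family median as a bar. The 4 genes with an adjusted p under 0.05 (red) lie below 0, in 4 different families, and 16 of 17 aldehyde dehydrogenases have a negative value.

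Exon length moves with the fold changes of this experiment. Over the 16238 genes with a length, the median Wald statistic (log2 fold change over its SE) was -0.30 among the shortest and 0.51 among the longest of 20 length groups. The median exon length of the members was 2793 bases against 3830 for all genes. After each group's median was taken off, 80 of 126 members were negative (63.5 percent, against 49.99 percent of all genes), with a median statistic of -0.39 in place of -0.59.

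Msrb3 encodes a methionine sulfoxide reductase, which repairs oxidised methionine in proteins. Its mean level was 690 normalized counts, and the implied levels were 903 in the control and 477 in the knockout. The log2 fold change in the authors' deposited table was -0.92 ± 0.19 (SE, DESeq2 adjusted p = 0.000437), or 52.8 percent of the control level with an interval of 40.8 to 68.4 percent. On GRCm38 it occupies chr10:120781096-120899101, minus strand. The SE of Msrb3 was 1.02 times the median SE of genes of like mean level, so its fold change was about as precise as theirs. Its relatives missed the threshold in the authors' deposited table, with Msrb1 at -0.31 ± 0.20, Msrb2 at -0.19 ± 0.21 and Msra, which acts on the other stereoisomer of the oxidised methionine, at 0.29 ± 0.25. Msrb1 and Msrb2 work in the nucleus and cytosol and in mitochondria, and Msrb3 in the endoplasmic reticulum or mitochondria. The authors themselves left Msrb3 among their stable genes, where, read from the values, a call needs a log2 fold change of more than 1.013 in size.

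Cdo1 encodes cysteine dioxygenase, which commits cysteine to taurine and sulfate rather than to glutathione. It was the most abundant of the 4 in normalized counts, with a mean level of 4342 and implied levels of 6055 in the control and 2630 in the knockout. The fold change in the authors' deposited table was -1.20 ± 0.31 on the log2 scale (SE, DESeq2 adjusted p = 0.0176), or 43.4 percent of the control level with an interval of 28.3 to 66.5 percent. Its SE was 1.81 times that of genes of like level, higher than for 97.6 percent of all listed genes by this measure. Its fold change was thus less precise than most at such a level.

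Aldh1a7 and Aldh1a1 are neighbouring members of the Aldh1a group of aldehyde dehydrogenases, on chromosome 19 of GRCm38 at 20692953 to 20727562 (minus strand) and 20492715 to 20643465 (plus strand). Aldh1a1 makes retinoic acid from retinaldehyde. Both had low levels. Aldh1a7 had a mean of 102 normalized counts, with implied levels of 164 in the control and 39.8 in the knockout, and fell by 2.04 ± 0.54 on the log2 scale (SE, DESeq2 adjusted p = 0.0187) in the authors' deposited table. The SE of Aldh1a7 was 1.75 times that of genes of like level, a ratio higher than for 97.0 percent of all listed genes. Aldh1a1 had a mean of 18.9 and implied levels of 26.6 and 11.2, and its value in the authors' deposited table was -1.26 ± 0.54 (adjusted p = 0.413 by DESeq2). Aldh1a3, the retinaldehyde dehydrogenase that marks luminal progenitor cells and that the rule leaves out, had a mean level of 11619 and the opposite sign, 0.72 ± 0.26 (adjusted p = 0.227) in the DESeq2 results of the authors' deposited table. The difference between these genes was not tested.

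Akr1c13 encodes an aldo-keto reductase of the family that acts on steroids and xenobiotic alcohols. It had a mean level of 232 normalized counts and implied levels of 311 for the control and 154 for the knockout genotype. Its entry in the authors' deposited table is -1.02 ± 0.28 (SE, DESeq2 adjusted p = 0.0378), or 49.4 percent of the control level with an interval of 33.6 to 72.8 percent. The gene stands on the plus strand at chr13:4191150-4205596 of GRCm38, between Akr1c14 and Akr1c12. Akr1c14, a 3-alpha-hydroxysteroid dehydrogenase, had the lowest fold change of all members, -2.42 ± 0.96, and Akr1c12 had -0.87 ± 0.89, neither of them passing in the authors' deposited table. Their SEs were 3.36 and 3.03 times those of genes of like level, so these 2 fold changes were imprecise for their level. The cluster is on the chromosome of Ocln but 96.3 Mb from it at Akr1c13, and the member nearest to Ocln there, Gpx8, is 12.5 Mb away.

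Both of these called genes have a close paralog, and the labels do not say how reads that match 2 genes were counted. The start of the coding part of each pair is shown because it tells how much sequence they share. These are the first 120 coding bases of 1 GENCODE M21 transcript a gene, with the bases that differ from the partner in capitals.
Akr1c13: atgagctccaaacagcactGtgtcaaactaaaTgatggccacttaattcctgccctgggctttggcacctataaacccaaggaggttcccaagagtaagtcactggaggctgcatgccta
Akr1c12: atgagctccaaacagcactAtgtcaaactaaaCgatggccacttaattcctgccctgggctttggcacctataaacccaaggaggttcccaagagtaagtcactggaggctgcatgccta
Aldh1a7: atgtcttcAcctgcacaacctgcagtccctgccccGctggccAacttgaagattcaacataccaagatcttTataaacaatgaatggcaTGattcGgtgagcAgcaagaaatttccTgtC
Aldh1a1: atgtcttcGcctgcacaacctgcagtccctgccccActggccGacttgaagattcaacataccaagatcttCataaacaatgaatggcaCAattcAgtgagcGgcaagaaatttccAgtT

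Akr1c13 and Akr1c12 differ at 2 of these 120 bases and at 37 over their coding parts of 969 bases, with 96.2 percent identity and an identical stretch of up to 228 bases. Aldh1a7 and Aldh1a1 differ at 10 of the 120 bases and at 126 over 1503, with 91.6 percent identity and an identical stretch of up to 100 bases. The value of Akr1c13 is therefore uncertain as to which of the pair it came from, and that of Aldh1a7 is less so. For Msrb3 and Cdo1, 0 matches to another gene were found in the annotated transcripts.

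After a correction of all Wald statistics for their inflation (factor 1.18), Msrb3 alone of the 4 passed (adjusted p = 0.0028 over all genes from the DESeq2 statistics), while Cdo1 (0.0577), Aldh1a7 (0.0607) and Akr1c13 (0.107) did not. Akr1c13 also missed the threshold after the trend with exon length was removed (adjusted p = 0.0643).

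**Figure D2:**
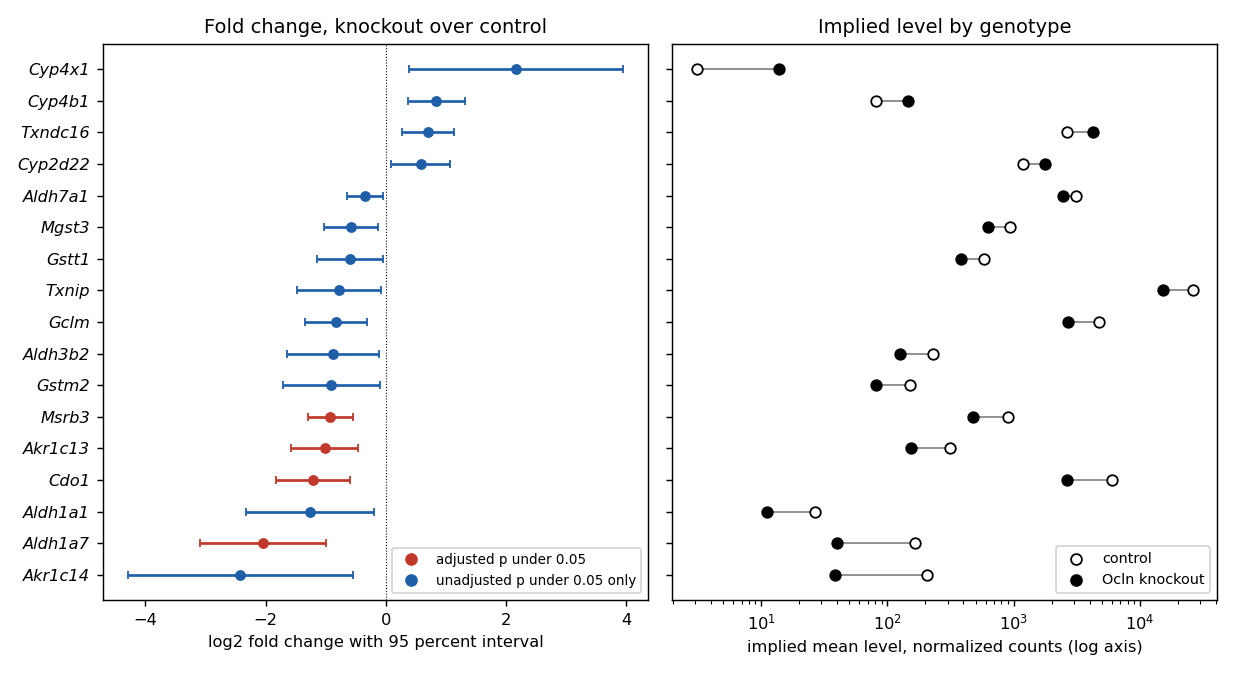
Left, log2 fold change of knockout over control with its 95 percent interval (1.96 SE on either side) for the 17 members with an unadjusted p under 0.05. Right, the implied mean level of each gene in the control (open) and knockout (filled) libraries in normalized counts on a log axis. The 4 red genes passed the adjusted threshold, and 13 of the 17 are lower in the knockout.

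The aldehyde dehydrogenases, which turn aldehydes of lipids, amino acids and retinoids into acids, held 1 of the called genes. Of 17 listed, 1 fell, 0 rose and 16 had values below 0 (median -0.34), where 51.2 percent of all listed genes had such values. Aldh3a2, which removes fatty aldehydes, had the highest mean level (5288 normalized counts) and a value of -0.48 ± 0.28 in the authors' deposited table. Aldh2, the mitochondrial acetaldehyde enzyme, followed in level (3730) and stood at -0.02 ± 0.17 in the authors' deposited table, an interval of 78.1 to 124 percent of the control level. Besides the Aldh1a pair, Aldh7a1 (-0.34 ± 0.15) and Aldh3b2 (-0.87 ± 0.39) had an unadjusted DESeq2 p under 0.05 in the authors' deposited table without passing (adjusted p = 0.452 and 0.445). Aldh18a1, a proline synthesis enzyme, was the only positive one, at 0.09 ± 0.22 in the authors' deposited table.

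Among the 15 aldo-keto, carbonyl and quinone reductases, Akr1c13 fell, 0 rose, and 13 had a negative value, with a median of -0.27. The share of negative values over all listed genes was 51.2 percent. Akr1a1, an aldehyde reductase, had the highest mean level (10562 normalized counts) and a value of -0.12 ± 0.15, and Cbr1, a carbonyl reductase, had -0.36 ± 0.23 in the authors' deposited table. Nqo1, the quinone reductase that is the textbook target of NRF2, was at -0.13 ± 0.24 in the authors' deposited table. Its interval runs from 65.5 to 127 percent of the control level. Cbr3, beside Cbr1 on chromosome 16, had -0.63 ± 0.35, while Cbr2 had 0.87 ± 0.72 in the authors' deposited table.

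Cytochromes P450, the oxygenases of the first phase, had more positive than negative values. Of 26 listed, 0 passed, 15 were positive, and the median was 0.08. At an unadjusted p under 0.05 there were 3, all higher, where 5.23 percent of all listed genes were higher at that threshold. Cyp4b1, which oxidises fatty acids and small xenobiotics, came nearest to the threshold of all members. It had 114 normalized counts and 0.84 ± 0.25 in the authors' deposited table (DESeq2 adjusted p = 0.0537), or 179 percent of the control level with an interval of 128 to 250 percent. It passed when the adjustment was made over genes of mean level 50 and above (adjusted p = 0.0457) and when the length trend was removed (0.0293), both from the DESeq2 statistics. With the inflation of those statistics removed, Cyp4b1 did not pass (adjusted p = 0.141). Cyp2d22 had 0.58 ± 0.25 at a mean level of 1477 in the authors' deposited table (DESeq2 adjusted p = 0.42). Cyp4x1, a neighbour of Cyp4b1 on chromosome 4, had 2.17 ± 0.91 in the authors' deposited table, but at a mean level of 8.52 normalized counts, near the lowest listed. Its implied levels were 3.10 in the control and 13.9 in the knockout. With no listed mean below 8.35, it would not be listed at its control level. Its positive sign is therefore tied to its being listed and adds no support. Cyp4x1 also shares 450 exon bases with its antisense gene Cyp4x1os.

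The most abundant P450 genes in normalized counts were Cyp3a57 (2661) and Cyp1b1 (1900). Cyp3a57, of the subfamily known for drug oxidation, had -0.18 ± 0.27 in the authors' deposited table. Cyp1b1, which hydroxylates estrogens and is a target of the aryl hydrocarbon receptor, had implied levels of 1078 in the control and 2723 in the knockout. Its value in the authors' deposited table was 1.34 ± 0.88, with an interval from 76.3 to 837 percent of the control level. Cyp1a1, the other classic target of that receptor, was not listed. Cyp24a1 and Cyp27b1, which inactivate and activate vitamin D, had 1.31 ± 1.33 and 0.67 ± 0.69 in the authors' deposited table, and Cyp26b1, which degrades retinoic acid, had -0.56 ± 0.45. Cyp2b19, at only 13.7 normalized counts, had 0.85 ± 0.64 in the authors' deposited table.

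Glutathione S-transferases attach glutathione to electrophiles. Of 22 listed, 0 passed, 17 had a negative value and the median was -0.23. At an unadjusted p under 0.05 there were 3 and all were lower in the authors' deposited table, namely Mgst3 (-0.58 ± 0.23), Gstt1 (-0.60 ± 0.28) and Gstm2 (-0.91 ± 0.41). Among all listed genes, 3.83 percent were lower at that threshold. Mgst1, a membrane-bound transferase and the family's most abundant by mean level (8879 normalized counts), had 0.30 ± 0.23, and Gstt3 had -0.38 ± 0.24 in the authors' deposited table. All 6 Gstm rows and all 3 Gstt rows were negative, with medians of -0.20 and -0.38. The Gstm genes other than a pseudogene lie together on chromosome 3, and the Gstt genes on chromosome 10. Gstp1 (-0.23 ± 0.24) and the pseudogene Gstp-ps (-0.24 ± 0.23) had almost the same value in the authors' deposited table, and their transcripts are 97.6 percent identical where they align. The 4 sulfotransferases had values from -0.51 to 0.80 and 0 passed. Sult2b1, a cholesterol sulfotransferase, led them in level with 343 normalized counts and had -0.38 ± 0.27 in the authors' deposited table, and Sult1a1, a phenol sulfotransferase, had -0.51 ± 0.50.

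Both subunits of glutamate-cysteine ligase, which makes the first and limiting step of glutathione synthesis, had negative values. Gclm, the modifier subunit, had implied levels of 4733 in the control and 2673 in the knockout. Its value in the authors' deposited table was -0.82 ± 0.26 (DESeq2 adjusted p = 0.0981), or 56.5 percent of the control level with an interval of 39.6 to 80.6 percent that is not adjusted for the number of genes. Gclc, the catalytic subunit, had implied levels of 7221 and 5221 and a value of -0.47 ± 0.28 in the authors' deposited table (DESeq2 adjusted p = 0.657). Hmox1, the inducible heme oxygenase, had 0.06 ± 0.18, and Hmox2, the constitutive one, had -0.23 ± 0.16 in the authors' deposited table. Gclm overlaps an antisense transcript, Gm17494, by 296 exon bases and a pseudogene on its own strand, Gm6061, by 244.

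Other genes of the glutathione route came from lists of pathway genes that are not members. Of 35 listed NRF2 targets and glutathione genes, 0 passed, while 2 higher and 4 lower genes met the unadjusted threshold (median -0.09). Among all listed genes, 5.23 percent were higher and 3.83 percent lower at that threshold. Gsr, which regenerates reduced glutathione, had -0.67 ± 0.24 in the authors' deposited table (DESeq2 adjusted p = 0.212). Chac2, which degrades glutathione, had -0.82 ± 0.28, and the epoxide hydrolase gene Ephx1 had 0.58 ± 0.17 in the authors' deposited table (DESeq2 adjusted p = 0.149 and 0.0622). Gss, the second synthesis enzyme, had -0.16 ± 0.17 and the NRF2 target Srxn1, a sulfiredoxin, had 0.08 ± 0.31 in the authors' deposited table. Of 12 listed genes of sulfur amino acid metabolism, 0 passed, 1 was higher and 3 were lower at an unadjusted p under 0.05, with a median of -0.29. Further along the way from Cdo1 to taurine and sulfate, Csad, Got1 and Suox had -0.23 ± 0.20, -0.26 ± 0.29 and -0.73 ± 0.29 in the authors' deposited table, none passing.

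**Figure D3:**
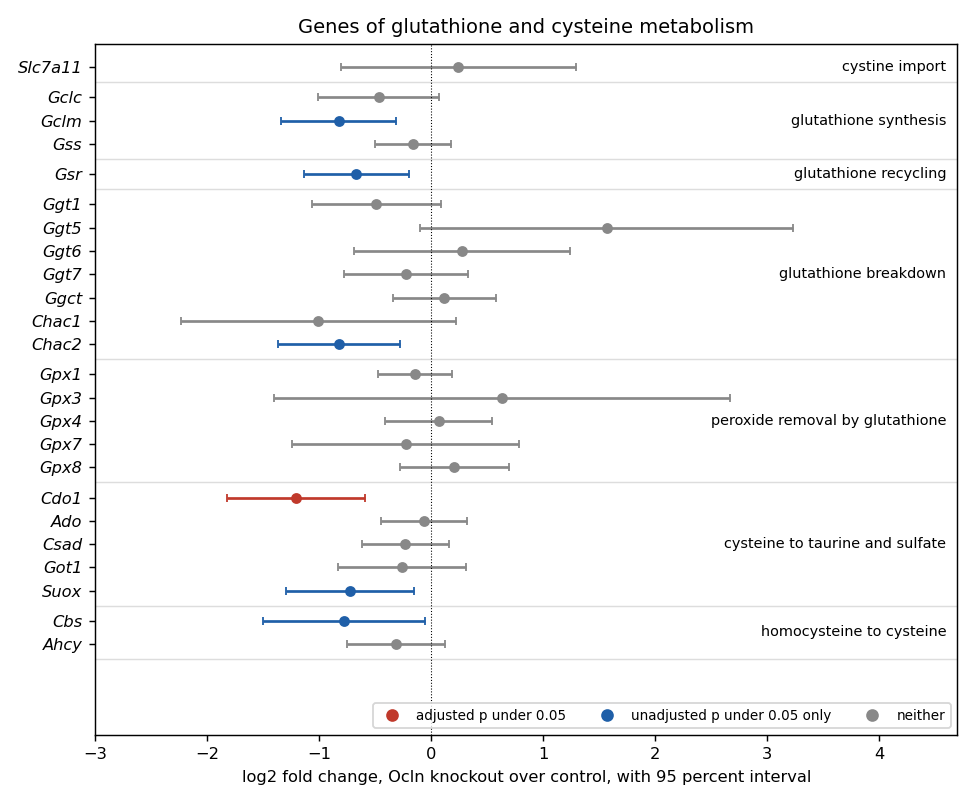
Log2 fold change of knockout over control with its 95 percent interval for genes of glutathione and cysteine metabolism, grouped by step. Cdo1 is the one gene past the adjusted threshold (red), and Gclm, Gsr, Chac2, Suox and Cbs have intervals below 0 without passing (blue).

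No gene of peroxide and superoxide removal passed. Of 6 glutathione peroxidase rows, 7 peroxiredoxin rows and 4 rows of superoxide dismutases and catalase, 0 passed and 0 had an unadjusted p under 0.05 in the DESeq2 results, with medians of 0.06, -0.21 and 0.03. Gpx3, the most abundant of them, had the widest interval and is described with the SEs of the members. Cat, which splits hydrogen peroxide, had 0.06 ± 0.13 in the authors' deposited table, and its interval runs from 87.1 to 126 percent of the control level. Sod1 (0.04 ± 0.16) and Sod2 (0.01 ± 0.14), the cytosolic and mitochondrial superoxide dismutases, had intervals of 82.7 to 128 and 83.1 to 123 percent of control by the authors' deposited table. A change of 1.5 times in either direction lies outside these 3 intervals. Sod3, the extracellular one, was low (16.6 normalized counts) and had -0.30 ± 0.53 in the authors' deposited table. Of the peroxiredoxins, Prdx6, which also acts on lipid peroxides, had -0.32 ± 0.24, and Prdx1 had -0.06 ± 0.19 in the authors' deposited table. Gpx1, the cytosolic glutathione peroxidase, had -0.14 ± 0.17 by the authors' deposited table.

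The thioredoxin prefix takes in proteins of several kinds, and of 17 rows 0 passed, with 1 lower and 1 higher at the unadjusted threshold and a median of -0.01. Txnip, which binds and inhibits thioredoxin and limits glucose uptake, had implied levels of 26154 in the control and 15228 in the knockout. Its value in the authors' deposited table was -0.78 ± 0.36 (DESeq2 adjusted p = 0.468), and its SE was 1.93 times that of genes of like level. Txnip shares 606 exon bases with the antisense gene Gm15441, which had 15.4 normalized counts. Txndc16, found in the endoplasmic reticulum, had implied levels of 2636 and 4283 and a value of 0.70 ± 0.22 in the authors' deposited table (DESeq2 adjusted p = 0.0952). It overlaps the opposite-strand gene Gpr137c by 159 exon bases, and Gpr137c had 0.59 ± 0.33 in the authors' deposited table. Txndc5, a disulfide isomerase of the same compartment, had -0.24 ± 0.16, and thioredoxin itself, Txn1, had -0.19 ± 0.20 in the authors' deposited table. The thioredoxin reductases Txnrd1, Txnrd2 and Txnrd3 had -0.01 ± 0.16, 0.01 ± 0.20 and 0.53 ± 0.28 in the authors' deposited table. Txnl4a, a spliceosome protein with a thioredoxin fold, had 0.33 ± 0.25.

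A feature that the choice by symbol did not use is selenocysteine, the selenium amino acid that some redox enzymes carry at the active site and that is written by the codon UGA, elsewhere a stop. GENCODE M21 marks such a codon in 7 members. Each is shown with up to 15 coding bases on either side and the codon, TGA in DNA letters, in capitals. The position is that of the codon on GRCm38, plus strand.
Gpx1 (chr9:108339451-108339453): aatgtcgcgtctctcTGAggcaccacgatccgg
Gpx3 (chr11:54907256-54907258): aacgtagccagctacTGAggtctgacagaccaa
Gpx4 (chr10:80054737-80054739): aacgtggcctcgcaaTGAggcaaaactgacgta
Msrb1 (chr17:24740158-24740160): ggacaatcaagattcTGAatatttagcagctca
Txnrd1 (chr10:82896037-82896039): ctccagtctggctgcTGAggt
Txnrd2 (chr16:18477772-18477774): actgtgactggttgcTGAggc
Txnrd3 (chr6:89674789-89674791): actcagaaaggctgcTGAggc

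In the 3 reductases the codon is the last but 1 of the protein, after a shared stretch ggctgc or ggttgc, and in the 3 peroxidases it is followed by gg. None of these 7 genes passed or had an unadjusted p under 0.05 in the authors' deposited table, and their median log2 fold change was 0.01. Of the 3 methionine-R-sulfoxide reductase genes, Msrb1 carries the codon and Msrb3, the one that fell, has none marked. In a list of 18 other selenoproteins and factors of their synthesis, 0 passed, 0 had an unadjusted p under 0.05 by DESeq2, and the median was -0.08.

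Gpx3, a secreted peroxidase, was the most abundant member per length of exon, with 13942 normalized counts per kilobase, followed by Gpx4-ps2 (6808), Txnip (6625), Mgst1 (4411) and Akr1a1 (3841). The order of levels per kilobase is a description of the mean over all libraries. Gpx4-ps2, a pseudogene by name, had 5419 normalized counts against 580 for Gpx4, the peroxidase of lipid peroxides, and 99.7 percent of the bases of the 2 transcripts are the same where they align. Their values in the authors' deposited table were 0.05 ± 0.20 and 0.07 ± 0.24. Which of the 2 genes these counts came from cannot be told apart. Of the 126 members with a transcript, 13 had a match of at least 95 percent identity in 1 alignment over at least 50 percent of the transcript in another gene. Akr1c12 was among these 13 and Akr1c13 was not. The best match of the whole Akr1c13 transcript to Akr1c12 had 94.5 percent identity, against the 96.2 percent of the coding part.

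**Figure D4:**
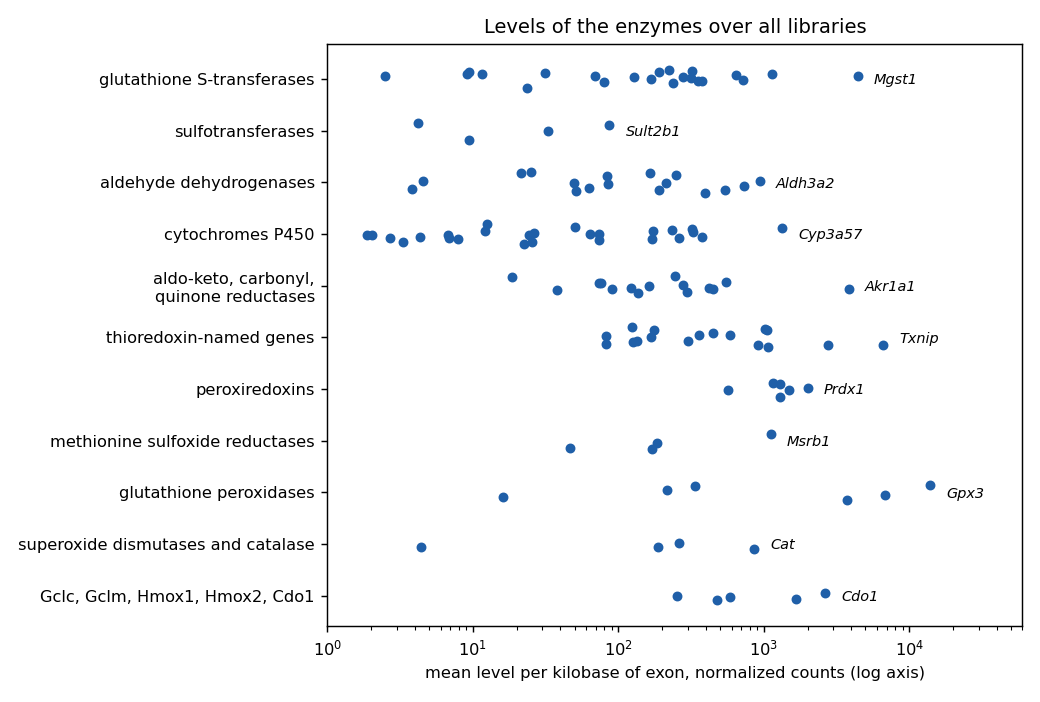
Mean level of each member over all 6 libraries per kilobase of exon, in normalized counts on a log axis, by family, with the highest member named. Gpx3 stands highest at 13942, and the sulfotransferases are all below 100.

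Without values per library, the SE does not give the spread within a genotype. It tells how precise a fold change is, and it set apart 7 members. Their SE was over 2 times the median of genes of like mean level, which is 5.51 percent of the members against 1.63 percent of all listed genes. They were Cyp24a1 (5.68 times), Gpx3 (5.60), Cyp1b1 (5.24), Cbr2 (3.45), Aldh3a1 (3.39), Akr1c14 and Akr1c12. For Gpx3 the authors' deposited table gives 0.63 ± 1.04 at a mean level of 25278 normalized counts, and its interval runs from 37.8 to 636 percent of control. Such an interval leaves both a fall and a rise within it, so no direction can be given for Gpx3, Cyp1b1, Cyp24a1, Cbr2, Aldh3a1 or Akr1c12.

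**Figure D5:**
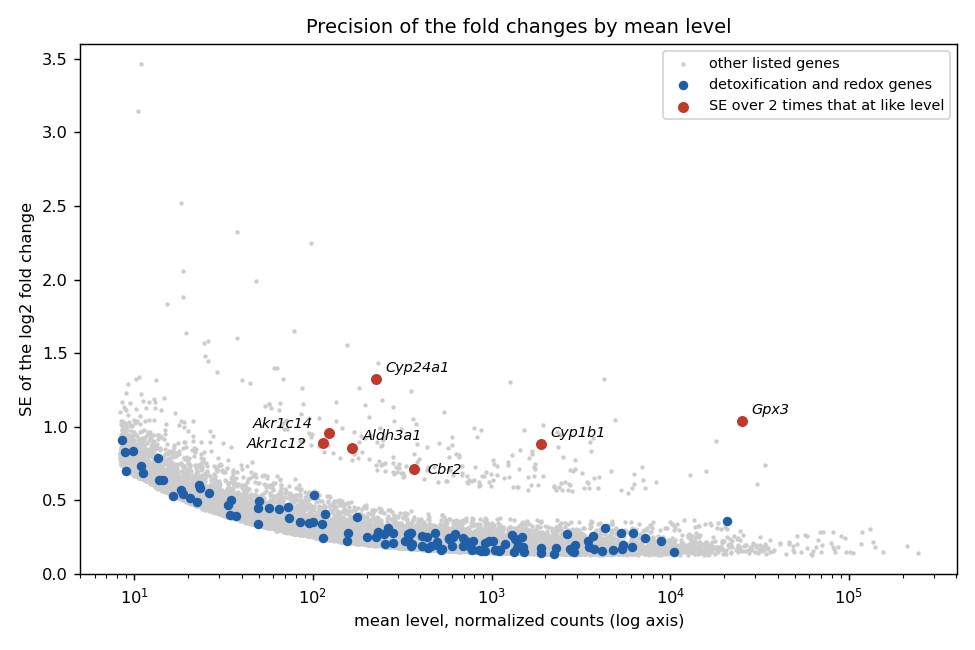
SE of the log2 fold change (vertical axis) against the mean level in normalized counts on a log axis, for all listed genes (grey) and the members (blue). The 7 members in red have an SE over 2 times that of genes of like level, and Gpx3 combines an SE of 1.04 with a mean level of 25278.

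Regulators were followed in a list of 24 genes, of which 19 were listed. Of these, 0 passed, and the unadjusted threshold was met by 3 higher and 0 lower genes (median 0.13). Nfe2l2, which encodes NRF2, had 0.19 ± 0.17 and its inhibitor gene Keap1 had -0.13 ± 0.17 in the authors' deposited table. Ahr had 0.74 ± 0.26 and Bach2, a repressor at NRF2 sites, had 0.74 ± 0.26 in the authors' deposited table (DESeq2 adjusted p = 0.203 and 0.189), and Maff, a partner of NRF2, had 0.41 ± 0.17. The xenobiotic receptor gene Nr1i2 was not listed. All 10 electron donor genes of P450 were listed, 9 of them with a negative value (median -0.17), where 51.2 percent of all listed genes were negative. Of the 10, 0 passed, and 0 were higher and 2 lower at an unadjusted DESeq2 p under 0.05. Por, the main reductase, had -0.32 ± 0.20 in the authors' deposited table.

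Of 16 listed genes of retinoid handling, 1 fell, Crabp1, a retinoic acid binding protein, with -2.34 ± 0.60 in the authors' deposited table (DESeq2 adjusted p = 0.0136), though its mean level was only 26.2 normalized counts. When the adjustment was made over genes of mean level 50 and above, Crabp1 dropped out and the 1 gene called in this list was Crabp2, which was higher. The related Crabp2 had 0.65 ± 0.19 (adjusted p = 0.0555) and Dhrs3, which turns retinaldehyde back to retinol, had -0.61 ± 0.23 in the DESeq2 results of the authors' deposited table. At an unadjusted p under 0.05 the retinoid list had 2 genes higher and 3 lower, with a median of -0.13. Of 15 listed sources of reactive oxygen, 0 passed, and 1 was higher and 3 were lower at an unadjusted p under 0.05, with a median of 0.18. The 3 lower ones were oxidases of amines and aldehydes, Maoa (-0.66 ± 0.21), Maob (-0.99 ± 0.30) and Aox1 (-0.60 ± 0.30) in the authors' deposited table.

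Promoters were searched for the cores of 2 response elements on both strands, in the RefSeq windows of GRCm38.p6 from 250 bases before to 50 after each start, which were matched for 99 of the 127 members. The antioxidant response element, where NRF2 binds, has the core TGACNNNGC. It was found in 15 of the 99 members, or 15.2 percent, against 14.0 percent of all 27025 genes with a window. The members with the core had a median log2 fold change of -0.06 with 0 called, and those without it -0.18 with 3 called. The xenobiotic response element, where the aryl hydrocarbon receptor binds, has the core GCGTG. It was found in 43 of 99 members, or 43.4 percent, against 35.2 percent of the same 27025 genes. Members with this core had a median of -0.19 and those without it -0.12. The 27025 include genes that are not listed here, while every member is listed, so for both cores the shares are of unlike sets. A match to one core can overlap a match to the other in the letters GC, and such matches count for both. Gclm, Txnrd1 and Prdx1 are shown because they are known NRF2 targets with a match before the start, which is in capitals and reads as the core on the opposite strand.
Gclm (chr3:122245403-122245451, plus strand): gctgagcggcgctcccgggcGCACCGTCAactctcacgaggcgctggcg
Txnrd1 (chr10:82859094-82859142, plus strand): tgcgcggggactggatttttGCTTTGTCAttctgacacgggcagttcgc
Prdx1 (chr4:116685446-116685494, plus strand): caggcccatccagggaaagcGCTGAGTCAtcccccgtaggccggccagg
Their values in the authors' deposited table were -0.82, -0.01 and -0.06, none passing, and the differences between them were not tested. A match is a description of letters and not of binding.

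Markers of luminal states and of other cells moved in the same comparison, and in RNA of mixed cells fewer cells of a type and less RNA per cell cannot be told apart. Of 13 luminal progenitor markers, Cyp24a1 among them, 11 were positive, 4 rose and 1 fell (Csn3, a casein gene), and their summed implied level was 155012 in the control and 324155 in the knockout. Ltf, the lactoferrin gene, alone went from 20540 to 123631, and the other 12 summed to 134472 and 200524. Of 10 listed hormone-sensing markers, 8 were negative and 0 passed, with sums of 208014 and 149625. Ptn alone went from 98437 to 64859, and the other 9 summed to 109577 and 84767. The SEs of the hormone-sensing markers were at the median 2.57 times those of genes of like level, so their sums are imprecise. All 10 markers of dividing cells were negative with 0 passing, and their sum went from 4450 to 2143. At an unadjusted DESeq2 p under 0.05, 5 of these 10 were lower, where 3.83 percent of all listed genes were. Of 11 macrophage and myeloid markers, 10 were positive and 1 rose, with sums of 4101 and 7138. For B and plasma cells the sums were 164 and 503 and for T and NK cells 208 and 310, with Cd3e, Cd3d, Cd3g and Nkg7 of the latter not listed. In both lists 0 genes passed and 0 had an unadjusted DESeq2 p under 0.05. Their SEs were at the median 3.74 and 1.66 times those of genes of like level, so these sums are imprecise. The 10 listed fibroblast markers had sums of 2997 and 2970, though Dcn, the decorin gene, fell, and the other 9 summed to 2439 and 2753. Of 10 basal markers 1 fell, Oxtr, the oxytocin receptor gene, and the sums were 2497 and 2150 with it and 1916 and 1951 without it. The pericyte sums of 6859 and 7635 were nearly all Notch3, and the other 4 listed markers had 125 and 107. Sums were 3346 and 3632 for endothelial, 320 and 124 for erythroid and 355277 and 344531 for pan-luminal markers. Of the 5 listed erythroid markers, 0 passed and 1 was lower at an unadjusted DESeq2 p under 0.05. The 3 listed adipocyte markers had sums of 5685 and 5234. The part of these cell types in the lower values of Cdo1, Aldh1a7, Akr1c13 and Msrb3 was not tested.

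With a gap of at most 500 kb, members formed 18 groups of neighbours, of which 10 were all negative, 1 all positive and 7 mixed. This is to be read beside the 66.1 percent of all members that were negative. The Gstt, Akr1b, Aldh3a, Cbr1 and Cbr3, Gstm and Aldh1a neighbours were among the all-negative groups. Gclc with Gsta4 and Gsta2, and Akr1c14 to Akr1e1, were mixed. Cyp4b1 and Cyp4x1 were the all-positive group, though the sign of Cyp4x1 is tied to its being listed through its knockout level. The 5 Cyp4f rows near one another on chromosome 17 ran from -0.71 to 0.08 on the log2 scale. Reads shared between paralogs would give neighbours like values, and the part of such reads was not tested.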

How the data were processed

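RNA-seq of luminal epithelial cells from 3 control and 3 Ocln knockout libraries was used as the authors' deposited table of 1 comparison. The submitters' processing notes name DESeq2 and mm10. Not given in the sources used here are aligner, counter and model. The table holds, per the file headers, a mean level (a signal in normalized counts), a log2 fold change with its SE, a Wald score, p-values and adjusted p-values, and another column with their call of Up, Down or Stable. Recomputing showed the score to be the fold change divided by its SE, with a largest gap of 2.6e-07, and the adjusted p-values to follow Benjamini-Hochberg over all genes to within 0.51 percent. No new test per gene was made. The depth of each library is unknown.

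Intervals are 1.96 SE on either side (95 percent), not adjusted for the number of genes. Implied levels assume that the mean covers 3 and 3 libraries. SEs were compared with the median in 100 bins of mean level. Exon lengths, overlaps and transcripts are GENCODE M21 (GRCm38), transcripts were compared with blastn 2.17.0 and Biopython 1.88, and promoters are RefSeq's. The adjustment, inflation and length steps were tested on simulated data. Members, 12 families, 7 pathway lists and 13 marker lists were chosen with earlier results of these data known. Genes are named if called, among the 2 highest in level of a family, among the 10 members with the largest positive or negative Wald scores that did not pass, in a short list of well-known redox genes, or as called list members and main regulators. Others were chosen after their values were seen, among them Gsr, Chac2, Ephx1, Maoa, Maob, Aox1, Crabp2, Dhrs3 and paralogs.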

Additional observations from a re-analysis of the deposited data

How the results depend on the processing

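No paired analysis was possible because the deposited table holds 1 comparison and no values per library, so leaving out a replicate was not run either. The settings change thresholds or p-values and, but for the length trend, cannot change a direction. At an adjusted p under 0.01, 1 member was lower, Msrb3, and the aldehyde dehydrogenases, the reductases, the group with Cdo1 and the retinoid list had 0 called. With the inflation removed, 1 was again lower, Msrb3, and the first 3 of these families had 0. Where a log2 fold change of 1 or more in size was also asked for, the methionine sulfoxide reductases had 0. With a mean level of at least 50, 1 member was higher, Cyp4b1, the only called P450, and the retinoid list's 1 call was Crabp2, higher, in place of Crabp1, lower. With the length trend removed, 1 member was higher, Cyp4b1, and 3 were lower. By the authors' own calls (2.79 percent of all genes) 5 members were lower and 1 higher, Cyp4x1, with 2 aldehyde dehydrogenases, 2 reductases, 1 P450 and 0 methionine sulfoxide reductases, and the lists of retinoid handling and reactive oxygen had 3 and 1. Leaving out the 13 members with a near copy by whole transcript keeps Akr1c13. In an alternative chosen after seeing the data, Akr1c13 was left out too for its coding part, and 3 were lower. Over all genes, 181 were called, 107 at 0.01, 117 with the fold change limit, 466 by the authors and 119 with the inflation removed. Under the level limit of 50 the total was 178, of which 136 were higher and 42 lower. After removal of the length trend it was 166, of which 124 were higher and 42 lower. Low levels limit Aldh1a7, Aldh1a1, Cyp4x1 and Crabp1.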
